A study of Mus musculus with 12 samples.

Results

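The genes described here are 40 mouse genes of the integrated stress response that are known as targets or partners of the transcription factor ATF4, chosen by name from the 38911 genes of the count tables. They comprise 17 stress regulators and effectors, 14 enzymes of amino acid synthesis and one-carbon metabolism, and 9 amino acid transporters. Earlier results of these data were known when the 40 were chosen. Of the 40, 38 had enough counts to be tested. In the integrated stress response, kinases that sense stress in the endoplasmic reticulum (ER), uncharged tRNA, viral RNA or heme shortage and mitochondrial damage phosphorylate the translation factor eIF2. General translation falls, while translation of the *Atf4* mRNA rises. ATF4 then binds DNA together with partners of the C/EBP family at C/EBP-ATF response elements, and it is known for inducing genes that make, import and spare amino acids, along with regulators that feed back on the response.

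The RNA came from gastruloids, aggregates of mouse embryonic stem (ES) cells that form mesoderm and elongate along an axis. All libraries were made from 1 ES cell line, E14TG2a, kept in 2i and LIF, with 200 cells per gastruloid, and were collected on day 4 after treatment from day 3. The groups received 1× glucose (21.25 mM), no glucose (0×), 3× glucose (63.75 mM), or 5 mM 2-deoxy-D-glucose (2-DG) in 1× glucose. 2-DG was dissolved in PBS. The paper describes its gene comparison for 2-DG as made against gastruloids given PBS. The labels do not say whether the other groups received PBS, so from the labels 2-DG and its vehicle cannot be told apart. 2-DG is a glucose analog. The authors describe it as an inhibitor of hexokinase that blocks glycolysis and also competes with mannose in protein glycosylation. Every group held 3 libraries of pooled gastruloids, 1 from each of the ES cell passages 13, 15 and 16, so that the replicates were passages of a single line and not separate lines.

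Total counts ranged from 31902471 to 45956080 per library. Levels are given as CPM, counts scaled to a common library size with the TMM factors of edgeR, and they compare libraries for 1 gene but not genes of different length. A gene was called when its Benjamini-Hochberg adjusted p-value in edgeR's quasi-likelihood test was under 0.05 over the 16966 genes tested. Errors are standard errors of log2 fold changes or SD of 3 libraries, and p-values are two-sided. An exact permutation test on the 3 and 3 libraries of a pair of groups has 0.1 as its smallest p-value, so none was used. The summed level of 12 primitive streak and mesoderm markers was 1153 to 1566 CPM in 1× glucose and 655 to 892 CPM in 2-DG, where 5 of the 12 were called lower. For 8 neural markers the sum was 66.2 to 176 CPM in 1× glucose and 135 to 318 CPM in 2-DG, with 4 called higher and 1 lower. The 8 pluripotency markers summed to 39.2 to 53.4 CPM in 1× glucose and 62.0 to 77.1 CPM in 2-DG, with 1 called higher. The 8 endoderm markers summed to 106 to 128 CPM in 1× glucose and 79.8 to 101 CPM in 2-DG, with 1 called higher and 2 lower. The 8 fibroblast markers summed to 30.4 to 33.7 CPM in 1× glucose and 25.8 to 30.8 CPM in 2-DG, mostly *Pdgfrb*, the 1 called lower, and *Thy1*, while *Col1a1*, *Postn*, *Lum*, *Dcn* and *S100a4* were under 1 CPM in every library. None of the markers was at 0 in all libraries.

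The first question was how far 2-DG moved these genes from their level in 1× glucose. Of the 38 tested members, 24 were called between 2-DG and 1× glucose, where 17.6% of all genes tested were called. In 2-DG, 23 members were higher, against 9.12% of all genes, and only *Cth*, which makes cysteine from cystathionine, was called lower, against 8.51%. The members' median log2 fold change was 0.49, and that of all genes tested was 0.0023. The medians were 0.76 for regulators, 0.35 for enzymes and 0.50 for transporters. The libraries of 2-DG and 1× glucose did not overlap for 26 members that were higher in 2-DG (18.3% of all genes) and for 2 that were lower (17.2%). Since whole gastruloids were sequenced, fewer cells of a type and less RNA per cell cannot be told apart, and the part of the shifted germ layer markers in these differences was not tested.

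With the passage as a block, 30 members were called, including the 24, where 41.3% of all genes tested were called. Of the 30, 28 were higher and 2 lower, against 21.1% and 20.2% of all genes. The block added *Cebpb*, *Vldlr*, *Stc2*, *Eif4ebp1* and *Slc1a4*, which were higher in 2-DG, and *Cbs*, which was lower. Only 13 members were called when each gene's most abundant transcript was used in place of the gene total, where 3.88% of all genes were called. The directions were visible library by library in the map of levels.

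**Figure D1:**
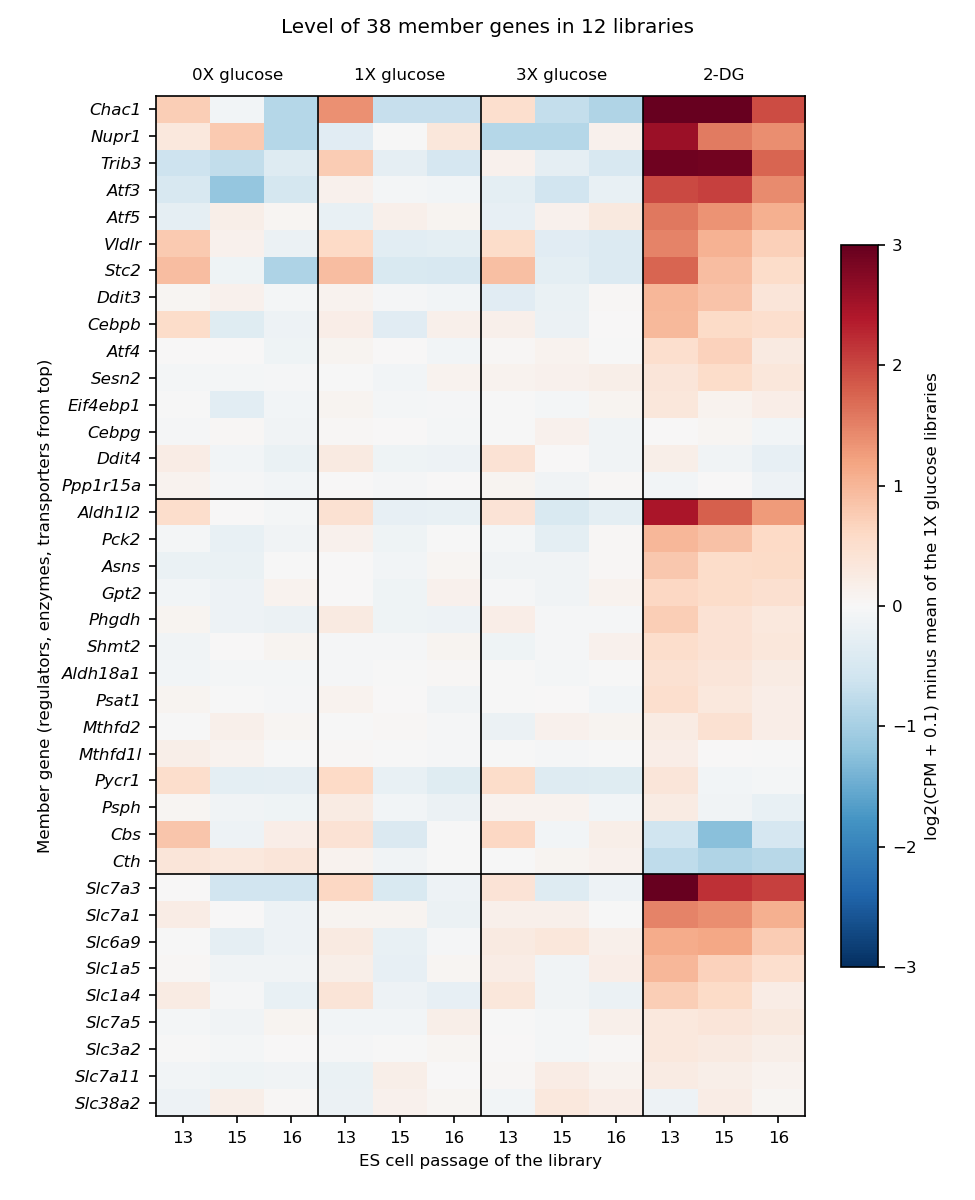
Colour shows log2(CPM + 0.1) of each of 38 member genes (rows) in each of 12 libraries (columns, by group and ES cell passage) minus the mean of the 3 libraries in 1× glucose. The scale ends at 3 in either direction, and horizontal lines separate regulators, enzymes and transporters. Most rows are red in the 3 libraries of 2-DG, whereas *Cth* and *Cbs* are blue there, and the libraries in 0× and 3× glucose stay near those in 1× glucose.

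The promoters were read for the element through which ATF4 and C/EBP factors are known to bind. The motif searched was TGATGNAA on either strand, which reads TTNCATCA on the opposite strand, in windows of 250 bases before to 50 bases after each annotated start (RefSeq, GRCm38.p6). A window was matched for 34 of the 40 members, and 11 of these held the motif (32.4%), compared with 4.51% of the 27025 genes that have a window and 3.97% of 32851 windows. Since the members were chosen as known targets or partners of ATF4, their larger share follows from that choice and is no independent result. *Eif4ebp1*, *Aldh1l2*, *Cth*, *Slc7a3*, *Slc7a5* and *Slc1a5* had no window. The stretches below are shown because they carry the motif, in capitals, in 6 members called in 2-DG, in *Vldlr* and *Slc1a4*, called only with the passage block, and in *Pycr1* and *Slc7a11*, which were called in neither fit. All are written 5′ to 3′ on the strand of the gene. In *Trib3* the motif lies at bases 15 to 22 of the transcript, and in *Slc1a4* it spans the start. Every other motif lies upstream of the annotated start of its window. For *Vldlr* and *Slc7a11* that is a start inside the gene, so their motifs lie within its span (chr19:27216480-27254231 and chr3:50364936-50499087).
Atf3, chr1:191183410-191183469, minus strand: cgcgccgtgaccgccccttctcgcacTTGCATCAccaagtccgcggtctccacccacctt
Trib3, chr2:152344029-152344056, minus strand: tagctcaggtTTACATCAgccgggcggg
Chac1, chr2:119351023-119351082, plus strand: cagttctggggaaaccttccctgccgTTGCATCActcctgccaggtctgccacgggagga
Nupr1, chr7:126625547-126625606, minus strand: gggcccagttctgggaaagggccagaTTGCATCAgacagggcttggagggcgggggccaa
Asns, chr6:7693210-7693258, minus strand: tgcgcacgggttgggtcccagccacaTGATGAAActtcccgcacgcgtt
Pck2, chr14:55540137-55540196, plus strand: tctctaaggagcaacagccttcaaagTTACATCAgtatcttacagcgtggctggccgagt
Vldlr, chr19:27216794-27216853, plus strand: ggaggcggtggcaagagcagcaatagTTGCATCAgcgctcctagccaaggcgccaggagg
Slc1a4, chr11:20332700-20332727, minus strand: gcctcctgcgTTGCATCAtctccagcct
Pycr1, chr11:120643818-120643877, minus strand: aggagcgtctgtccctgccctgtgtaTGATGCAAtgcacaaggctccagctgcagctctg
Slc7a11, chr3:50443646-50443705, minus strand: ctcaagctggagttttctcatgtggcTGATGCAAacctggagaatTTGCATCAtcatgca

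The remaining match was in *Fgf21*, a gene with no count in these libraries. By call, the motif was in the window of 6 of 19 members called in 2-DG, 2 of 5 called only with the passage block and 2 of 8 tested and called in neither fit. Among all genes called higher in 2-DG it was in 4.28% of the windows, and in 3.85% once the members were left out. It was in 2.46% of the windows of genes called lower, in 2.75% of those not called and in 2.87% of those of all genes tested. A match describes the letters of the window and is not evidence that a factor was bound.

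**Figure D2:**
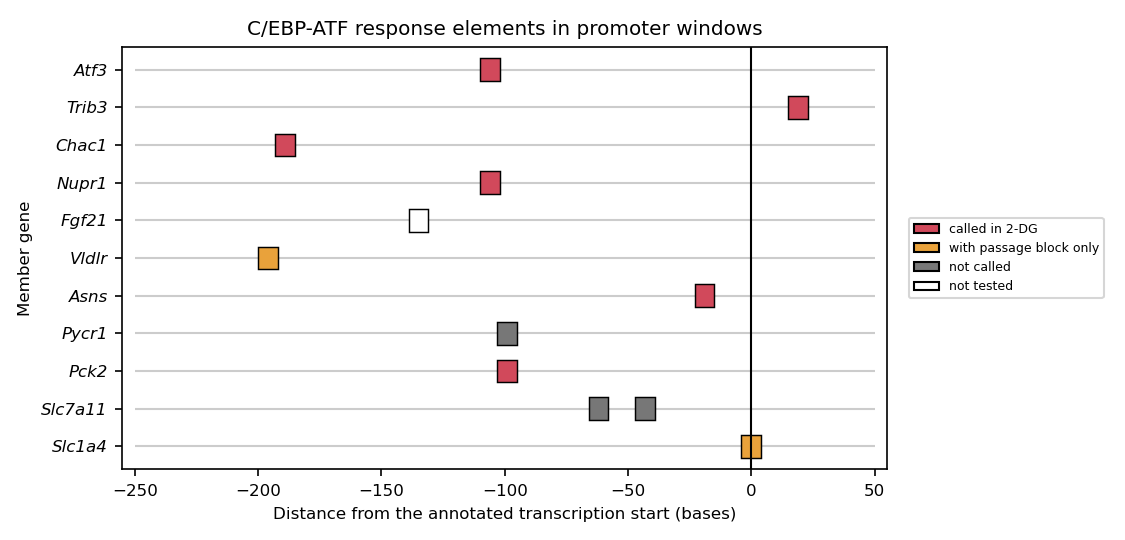
Position of each match to TGATGNAA or its reverse complement (boxes) in the promoter windows of 11 members, in bases from the annotated transcription start (vertical line). Box colour gives the member's result for 2-DG against 1× glucose. Matches sit between 200 bases before and 22 bases after the start, and *Slc7a11* holds a pair of them although it was not called.

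Among the regulators, 8 of the 15 tested were called, all higher in 2-DG. *Atf4* itself stood at 149, 143 and 133 CPM in the 1× glucose libraries of passages 13, 15 and 16, and at 199, 228 and 169 CPM in 2-DG. Every library of 2-DG lay above every library of the other groups, the 0× and 3× glucose libraries spanning 130 to 152 CPM. The log2 fold change of *Atf4* was 0.49 ± 0.09 (edgeR, adjusted p = 0.00613), which is 1.40-fold, and it was higher in 3 of 3 passages. These values are of the mRNA, and the amount of ATF4 protein was not measured.

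*Atf3* and *Atf5*, bZIP factors of the same response, moved further. *Atf3* was at 1.47, 1.26 and 1.25 CPM in 1× glucose and at 5.5, 5.83 and 3.73 CPM in 2-DG, a log2 fold change of 1.91 ± 0.23 (edgeR, adjusted p = 0.000592). *Atf5* went from 21.7, 28.1 and 26.6 CPM to 76.1, 64.2 and 53.4 CPM, a log2 fold change of 1.34 ± 0.18 (edgeR, adjusted p = 0.000951). For both genes the groups were well apart in each passage. *Ddit3*, which encodes the pro-apoptotic factor CHOP, stood at 7.82, 7.02 and 6.85 CPM in 1× glucose and 14.4, 13.1 and 9.24 CPM in 2-DG. It was 1.70-fold higher, with a log2 fold change of 0.76 ± 0.16 (edgeR, adjusted p = 0.00972), but was not called on its most abundant transcript alone (adjusted p = 0.0778).

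The largest fitted changes of the module were in *Chac1*, *Nupr1* and *Trib3*, which had few counts in 1× glucose. *Trib3*, a pseudokinase that restrains ATF4 and CHOP, was at 2.06, 0.947 and 0.799 CPM in 1× glucose and at 9.52, 9.29 and 4.16 CPM in 2-DG. Its log2 fold change was 2.58 ± 0.40 (edgeR, adjusted p = 0.00215), and its 2-DG libraries stood apart from all others. *Chac1*, an enzyme that degrades glutathione, was at 2.42, 0.50 and 0.497 CPM in 1× glucose and at 8.58, 13.7 and 3.62 CPM in 2-DG. These libraries did not overlap, yet both groups were spread widely. The log2 fold change of *Chac1* was 2.91 ± 0.73 (edgeR, adjusted p = 0.0217). It was no longer called without the passage 15 library of 1× glucose (adjusted p = 0.0813) or of 2-DG (0.0803), or without the passage 16 library of 1× glucose (0.0697). The call was also lost when only the groups compared were fitted (adjusted p = 0.0539). None of these fits had a passage term. With all libraries and the passage block, *Chac1* was called (edgeR, adjusted p = 0.000249).

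*Nupr1*, a small chromatin-associated stress protein, rested on few reads. It had 2, 3 and 6 counts in 1× glucose and 33, 16 and 14 counts in 2-DG, and 0 to 7 counts in the 0× and 3× glucose libraries. Its log2 fold change of 2.75 had a 95% interval of 0.91 to 4.60 (edgeR, adjusted p = 0.0448). Leaving out any 1 library of either group ended the call, with adjusted p-values of 0.0653 to 0.158, and DESeq2 gave it no adjusted p-value. With all libraries and the passage block, *Nupr1* was called (edgeR, adjusted p = 0.0202).

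*Sesn2*, which restrains mTORC1 when leucine is short, was higher in each passage. It was at 95.6, 92 and 104 CPM in 1× glucose and 126, 143 and 123 CPM in 2-DG. Here the log2 fold change was 0.42 ± 0.06 (edgeR, adjusted p = 0.00165). All 2-DG libraries lay above all others.

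A group of 4 further regulators was called only with the passage as a block, all higher in 2-DG. *Cebpb*, a C/EBP partner of ATF4, was at 1.84, 1.24 and 1.77 CPM in 1× glucose and at 3.25, 2.43 and 2.29 CPM in 2-DG (edgeR, adjusted p = 0.0870, and 0.00439 with the passage block). *Vldlr*, a lipoprotein receptor, was at 33.0, 17.6 and 17.7 CPM and at 60.8, 45.1 and 35.9 CPM (edgeR, adjusted p = 0.0671, and 9.71e-06 with the block). *Stc2*, a secreted glycoprotein induced by ER stress, was at 11.9, 4.45 and 4.39 CPM and at 20.8, 11.7 and 9.0 CPM (edgeR, adjusted p = 0.261, and 0.000205 with the block). For *Vldlr* and *Stc2* the passage 13 library was the highest of its group in both conditions, and in *Stc2* the groups overlapped while each passage was higher in 2-DG. *Eif4ebp1*, an inhibitor of cap-dependent translation, was at 116, 104 and 106 CPM and at 137, 117 and 125 CPM (edgeR, adjusted p = 0.0987, and 0.00509 with the block). Without the passage 13 library of 1× glucose, *Vldlr* was called also without a block (adjusted p = 0.0324).

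The other 3 tested regulators were not called by either fit. *Ddit4*, an mTORC1 inhibitor, had a log2 fold change of −0.06 with a 95% interval of −0.44 to 0.31. For *Cebpg*, another C/EBP partner of ATF4, the interval was −0.15 to 0.14, and for *Ppp1r15a*, which encodes the eIF2 phosphatase subunit GADD34, it was −0.24 to 0.09. Their libraries overlapped between 2-DG and 1× glucose. These intervals came from the fit without a passage term. With the passage block they were −0.14 to 0.02 for *Ddit4*, −0.09 to 0.08 for *Cebpg* and −0.22 to 0.07 for *Ppp1r15a*. The secreted stress factors were hardly detected. *Gdf15* had 0, 3 and 3 counts in 1× glucose and 2, 7 and 7 counts in 2-DG, and *Fgf21* had 0 counts in each of the 12 libraries, which allows up to 3 counts per library by counting error alone. Neither was tested.

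**Figure D3:**
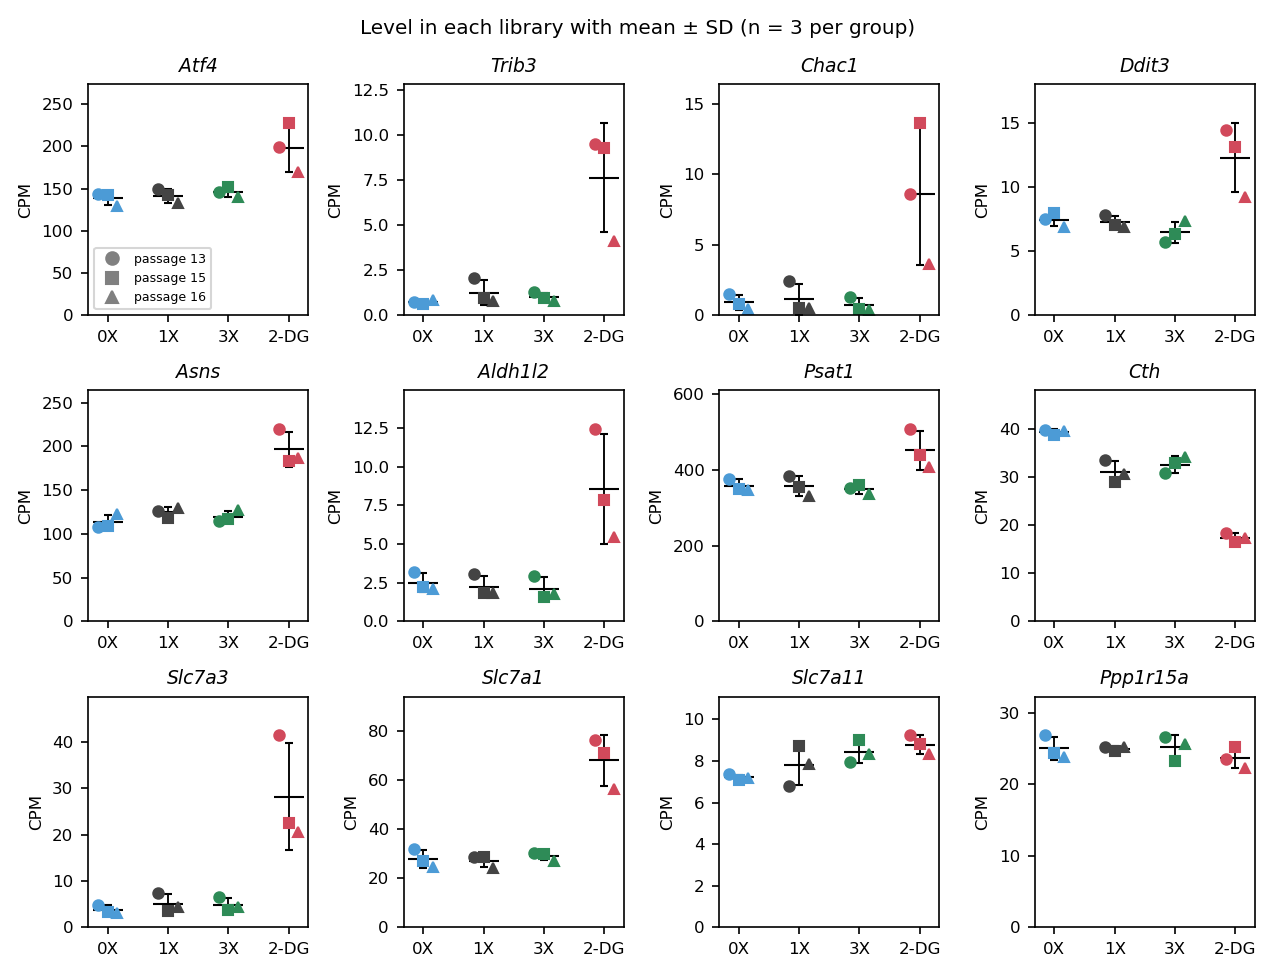
CPM (vertical axes, from 0) of 12 members in each library of 0×, 1× and 3× glucose and 2-DG, with marker shape giving the ES cell passage and black bars the mean ± SD of 3 libraries. *Trib3*, *Aldh1l2*, *Slc7a3* and *Slc7a1* are well above the other groups in 2-DG. *Chac1* is higher there with widely spread libraries, *Atf4* and *Psat1* are higher and *Cth* is lower. *Slc7a11* and *Ppp1r15a* overlap between 2-DG and 1× glucose.

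Among the 14 enzymes, 9 were called higher and 1 lower in 2-DG. Serine is made from the glycolytic intermediate 3-phosphoglycerate in a sequence of reactions catalysed by PHGDH, PSAT1 and PSPH. *Phgdh* was at 156, 119 and 117 CPM in 1× glucose and at 217, 176 and 161 CPM in 2-DG, a log2 fold change of 0.50 ± 0.14 (edgeR, adjusted p = 0.0317). *Psat1* was at 383, 356 and 330 CPM and at 507, 440 and 406 CPM, a log2 fold change of 0.34 ± 0.08 (edgeR, adjusted p = 0.0170). For both genes the groups were apart, though the passage 13 library of 1× glucose came close to the lowest library of 2-DG. *Psph*, the phosphatase of the final step, was at 30.2, 24.2 and 22.6 CPM and at 30.2, 23.5 and 22.0 CPM. Its groups overlapped almost entirely. Its log2 fold change had a 95% interval of −0.33 to 0.27, and of −0.19 to 0.13 with the passage block. The *Phgdh* call was lost without the passage 13 (adjusted p = 0.117) or 15 (0.0682) library of 2-DG, or the passage 15 (0.118) or 16 (0.104) library of 1× glucose. That of *Psat1* was lost without the passage 13 library of 2-DG (adjusted p = 0.0556) or the passage 15 (0.0611) or 16 (0.0606) library of 1× glucose. None of these fits had a passage term. With all libraries and the passage block, both were called (edgeR, adjusted p = 1.30e-05 for *Phgdh* and 0.000283 for *Psat1*).

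The mitochondrial one-carbon enzymes take a carbon unit from serine onto folate and release it as formate or carbon dioxide. *Shmt2*, which transfers that unit, was at 129, 130 and 140 CPM in 1× glucose and at 191, 181 and 168 CPM in 2-DG, a log2 fold change of 0.44 ± 0.07 (edgeR, adjusted p = 0.00320). *Aldh1l2*, which oxidises formyl-folate to carbon dioxide, went from 3.05, 1.84 and 1.86 CPM to 12.4, 7.85 and 5.43 CPM. That was the largest change among the enzymes, 3.80-fold, with a log2 fold change of 1.93 ± 0.36 (edgeR, adjusted p = 0.00510), and within each passage the 2-DG library was far above that in 1× glucose. *Mthfd2*, which oxidises methylene-folate, was at 77.3, 80.0 and 76.0 CPM and at 92.8, 106 and 89.7 CPM. Its log2 fold change was 0.31 ± 0.09 (edgeR, adjusted p = 0.0334). Dropping any library except that of passage 16 in 2-DG ended its call in fits without a passage term, at adjusted p-values of 0.0583 to 0.126. With all libraries and the passage block, *Mthfd2* was called (edgeR, adjusted p = 0.00134). *Mthfd1l*, which releases formate, had a 95% interval of −0.06 to 0.21 and was not called in either fit.

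Asparagine, alanine and proline synthesis were represented by 4 genes. *Asns*, asparagine synthetase, was at 126, 119 and 130 CPM in 1× glucose and at 220, 183 and 187 CPM in 2-DG, with a log2 fold change of 0.66 ± 0.08 (edgeR, adjusted p = 0.000636). *Gpt2*, mitochondrial alanine aminotransferase, was at 54.3, 49.3 and 58.8 CPM and at 83.2, 79.4 and 75.2 CPM, a log2 fold change of 0.55 ± 0.09 (edgeR, adjusted p = 0.00233). Both stayed called whichever of the 6 libraries was dropped, with the 2-DG libraries above all others. *Aldh18a1*, which makes the proline precursor from glutamate, was at 87.3, 89.1 and 92.4 CPM and at 122, 115 and 107 CPM, a log2 fold change of 0.36 ± 0.05 (edgeR, adjusted p = 0.00119). *Pycr1*, the last enzyme of mitochondrial proline synthesis, was at 81.9, 46.3 and 42.0 CPM and at 69.5, 51.1 and 51.6 CPM. It fell in passage 13 and rose in passages 15 and 16 by value. The 95% interval of its log2 fold change was −0.72 to 0.76 without a passage term, and −0.13 to 0.27 with the passage block. *Pck2*, which makes phosphoenolpyruvate in mitochondria, was at 22.5, 18.7 and 20.3 CPM and at 40.6, 37.4 and 30.8 CPM, a log2 fold change of 0.82 ± 0.12 (edgeR, adjusted p = 0.00158).

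The pair of genes for cysteine synthesis from homocysteine had lower mRNA levels in 2-DG by value, and only *Cth* was called. *Cth*, cystathionine gamma-lyase, was at 33.6, 29.0 and 30.6 CPM in 1× glucose and at 18.4, 16.5 and 17.3 CPM in 2-DG. All 2-DG libraries lay far below all others. The log2 fold change of *Cth* was −0.84 ± 0.07, or 1.79-fold lower (edgeR, adjusted p = 8.49e-05), and the adjusted p-value stayed at or below 0.00742 under every alternative tried. *Cbs*, which makes cystathionine for it, was at 5.01, 2.68 and 3.65 CPM and at 2.37, 1.47 and 2.56 CPM. It was lower in 3 of 3 passages, with a log2 fold change of −0.83 ± 0.33 (edgeR, adjusted p = 0.110, and 0.000906 with the passage block).

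Among the 9 transporters, 6 were called, all higher in 2-DG. *Slc7a1* and *Slc7a3* both carry arginine and lysine. *Slc7a3* was at 7.53, 3.50 and 4.34 CPM in 1× glucose and at 41.5, 22.6 and 20.5 CPM in 2-DG, a log2 fold change of 2.46 ± 0.37 (edgeR, adjusted p = 0.00176), or 5.49-fold. *Slc7a1* was at 28.9, 28.6 and 24.2 CPM and at 76.4, 71.2 and 56.5 CPM, a log2 fold change of 1.32 ± 0.13 (edgeR, adjusted p = 0.000185), or 2.5-fold. Neither gene's 2-DG libraries came near those of any other group. On its most abundant transcript alone *Slc7a3* was not called (adjusted p = 0.658).

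Of the glycine and neutral amino acid carriers of other families, *Slc6a9* and *Slc1a5* were called higher, *Slc1a4* only with the passage block, and *Slc38a2* by neither fit. *Slc6a9*, the glycine transporter GLYT1, was at 14.3, 10.2 and 11.7 CPM in 1× glucose and at 26.1, 26.9 and 20.4 CPM in 2-DG, a log2 fold change of 1.02 ± 0.14 (edgeR, adjusted p = 0.00135). *Slc1a5*, which exchanges glutamine, was at 23.5, 17.5 and 21.5 CPM and at 41.6, 33.7 and 29.2 CPM, a log2 fold change of 0.74 ± 0.15 (edgeR, adjusted p = 0.00736). In each case every 2-DG library was above every library in 1× glucose. *Slc1a4*, which carries serine, alanine and cysteine, was at 61.7, 42.7 and 39.8 CPM and at 79.2, 70.0 and 54.9 CPM (edgeR, adjusted p = 0.122, and 0.000107 with the passage block). Its groups overlapped, the passage 13 library of 1× glucose lying above the passage 16 library of 2-DG, and without that 1× glucose library it was called (adjusted p = 0.0402).

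SLC3A2 is the heavy chain that brings light chains such as SLC7A5, a leucine carrier, and SLC7A11, the cystine-glutamate exchanger, to the cell surface. *Slc3a2* was at 137, 138 and 145 CPM in 1× glucose and at 173, 170 and 159 CPM in 2-DG, a log2 fold change of 0.26 ± 0.05 (edgeR, adjusted p = 0.00471). *Slc7a5* was at 132, 132 and 157 CPM and at 175, 180 and 172 CPM, a log2 fold change of 0.33 ± 0.08 (edgeR, adjusted p = 0.0194). For *Slc3a2* and *Slc7a5* the groups did not overlap, but the *Slc7a5* call was lost without the passage 13 (adjusted p = 0.0661) or 15 (0.0830) library of 1× glucose or the passage 13 (0.0519) or 15 (0.0700) library of 2-DG. Those fits had no passage term. With all libraries and the passage block, *Slc7a5* was called (edgeR, adjusted p = 0.000651). *Slc7a11* was at 6.78, 8.74 and 7.87 CPM and at 9.22, 8.83 and 8.31 CPM. Its 95% interval of −0.06 to 0.41 reached a rise of the size seen for *Slc3a2* and *Slc7a5*. *Slc38a2*, a sodium-coupled carrier of small neutral amino acids, had an interval of −0.24 to 0.33, and of −0.02 to 0.12 with the passage block. Neither was called in either fit.

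In all, 11 calls were lost when only the most abundant transcript of each gene was counted. For 4 of these genes, *Chac1* (adjusted p = 0.0948), *Nupr1* (0.183), *Phgdh* (0.0984) and *Slc7a5* (0.0743), a single transcript is annotated, so their own counts were the same and only the fit shared with all genes differed. The common dispersion of that fit was 0.289, compared with 0.0317 on gene totals. In *Psat1* (0.0938) and *Mthfd2* (0.118) the most abundant transcript held 99.2% and 99.8% of the counts. *Shmt2* (0.242), *Slc1a5* (0.375) and *Aldh18a1* (0.679), like *Ddit3* and *Slc7a3* above, divide their counts among transcripts. All kept a higher level in 2-DG by value.

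The next question was whether removing glucose, or adding more, had a similar effect. None of the 38 tested members was called between 0× and 1× glucose in the edgeR fit, where 0.0118% of all genes were called, or with the passage block, where 0.0177% were. In all, 2 of the 38 had an unadjusted p-value under 0.05, as 1.80% of all genes did. The median log2 fold changes were −0.02 for regulators, −0.02 for enzymes and −0.03 for transporters. The libraries did not overlap for 1 member that was higher (2.69% of all genes) and 2 that were lower in 0× glucose (2.94%). *Cth* was at 39.8, 38.7 and 39.7 CPM in 0× glucose, above every library in 1× glucose. Its log2 fold change was 0.34 ± 0.07, with a 95% interval of 0.19 to 0.50 (edgeR, unadjusted p = 0.000515, adjusted p = 1.0), and it was the 1 member called by DESeq2 (adjusted p = 0.0126). The share of all genes that DESeq2 called there was not counted, so how unusual that call is cannot be told. So *Cth* was higher without glucose by value and lower with 2-DG. *Atf3* was at 0.915, 0.538 and 0.894 CPM in 0× glucose, below every library in 1× glucose, with a log2 fold change of −0.77 ± 0.24 (edgeR, unadjusted p = 0.00977, adjusted p = 1.0).

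For *Atf4* the 95% interval of the difference between 0× and 1× glucose was −0.24 to 0.17 on the log2 scale, and for *Asns* it was −0.32 to 0.04. Both lie below the value measured with 2-DG. For *Trib3* it was −1.69 to 0.17, and for *Chac1* −1.99 to 1.34, both wider. The width did not follow the level alone. For *Pycr1*, at 42.0 to 81.9 CPM in 1× glucose, it was −0.77 to 0.71, and −0.22 to 0.18 with the passage block.

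In 3× glucose the members were as little changed. None of the 38 was called against 1× glucose by edgeR, by the passage block or by DESeq2, and 0 of the 16966 genes tested were called by edgeR, with 178 (1.05%) at an unadjusted p-value under 0.05. *Sesn2* was the 1 member with an unadjusted p-value under 0.05. It was at 104, 107 and 110 CPM in 3× glucose, all above 1× glucose, a log2 fold change of 0.14 ± 0.06 (edgeR, unadjusted p = 0.0452, adjusted p = 1.0). The libraries of 3× and 1× glucose did not overlap for 1 member that was higher (2.09% of all genes) and 1 that was lower (2.38%). The class medians were 0.0075 for regulators, −0.02 for enzymes and 0.10 for transporters.

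Between 3× and 0× glucose no member was called by either fit or by DESeq2 either, where 0.0118% of all genes were called by edgeR and 0.802% with the passage block. Unadjusted p-values under 0.05 were found for 3 members, beside 4.33% of all genes. *Cth* was lower in 3× glucose, at 30.8, 33.0 and 34.1 CPM, with a log2 difference of −0.27 ± 0.07 (edgeR, unadjusted p = 0.00259, adjusted p = 0.898). *Sesn2* was at 92.5, 93.9 and 94.9 CPM in 0× glucose and was higher in 3× glucose by 0.19 ± 0.06 on the log2 scale (edgeR, unadjusted p = 0.0109, adjusted p = 1.0). *Slc6a9* was at 11.9, 9.83 and 10.7 CPM in 0× glucose and at 14.4, 15.1 and 13.3 CPM in 3× glucose, higher by 0.40 ± 0.14 (edgeR, unadjusted p = 0.0193, adjusted p = 1.0). Non-overlapping libraries of 0× and 3× glucose were found for these 3 genes and for *Slc7a11*, 3 of the 4 being higher (4.61% of all genes) and 1 lower in 3× glucose (4.4%).

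**Figure D4:**
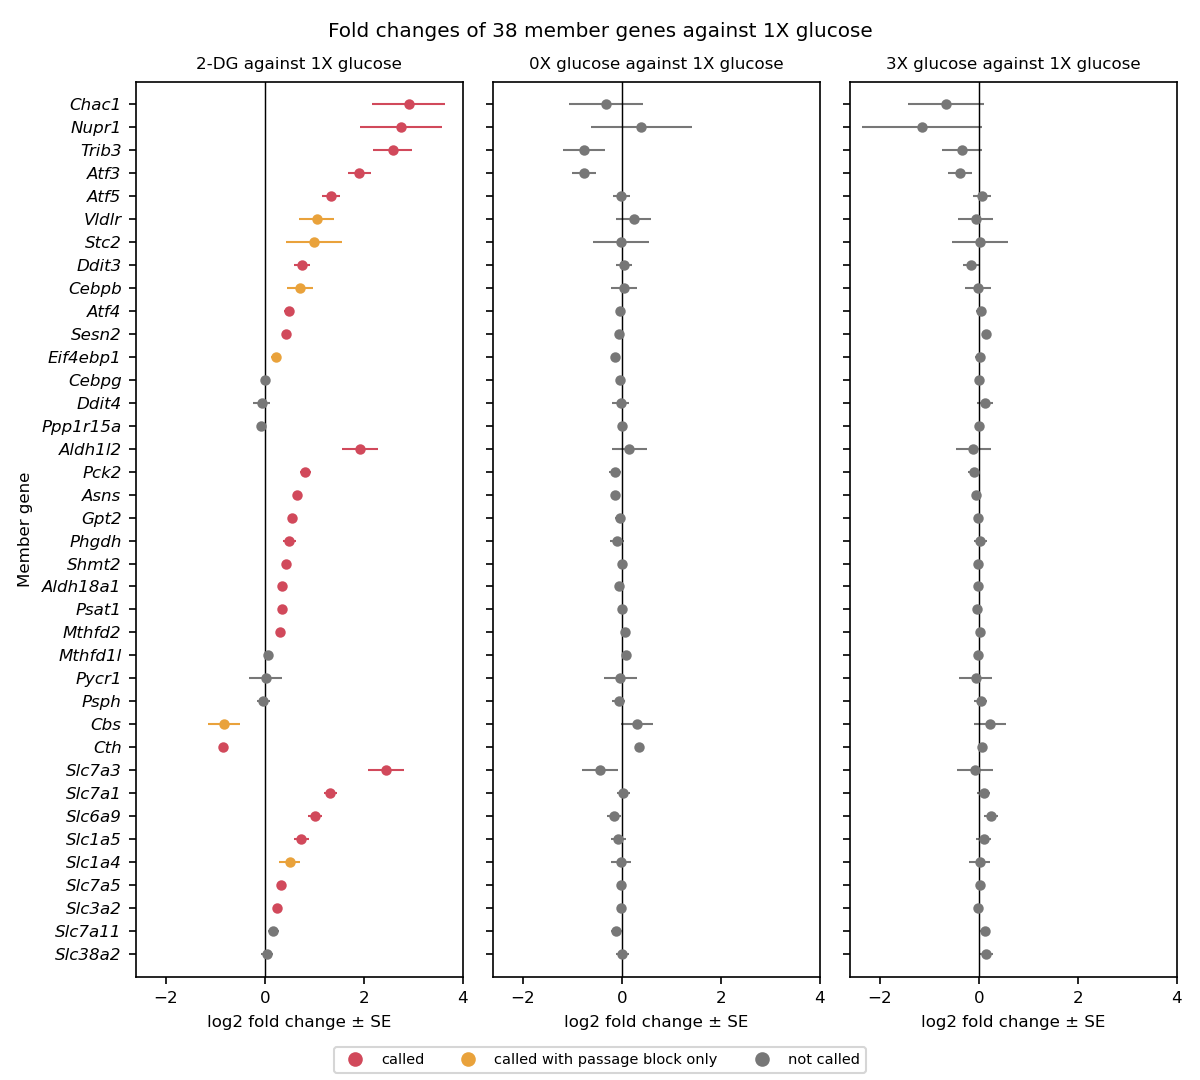
Log2 fold change ± SE (horizontal axes) of 38 members (rows) in 2-DG, 0× glucose and 3× glucose, each against the same 3 libraries of 1× glucose. Red points were called by edgeR, orange points only with the passage as a block, and grey points by neither. In 2-DG most points lie to the right of 0 with *Cth* and *Cbs* to the left, and no point is called in 0× or 3× glucose.

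Against the libraries without glucose, 22 of the 38 members were called higher in 2-DG, 2 lower, and 14 were not called. This comparison uses the same 2-DG libraries as that against 1× glucose and is no independent repeat. Of all genes tested 18.9% were called, 9.86% higher and 9.04% lower. The calls included 22 of the 24 made against 1× glucose, without *Nupr1* (edgeR, adjusted p = 0.0752) and *Mthfd2* (0.0705), and added *Cbs* and *Eif4ebp1*. With the passage block 31 were called, where 43.1% of all genes were. The median log2 fold changes were 0.72 for regulators, 0.38 for enzymes and 0.52 for transporters. *Trib3* had a log2 fold change of 3.35 ± 0.42 (edgeR, adjusted p = 0.000686) and *Atf3* of 2.68 ± 0.24 (edgeR, adjusted p = 0.000117). *Cth* differed by −1.18 ± 0.07 (edgeR, adjusted p = 2.24e-05), the smallest adjusted p-value among the members. *Cbs* differed by −1.14 ± 0.33 (edgeR, adjusted p = 0.0350), but not without the passage 13 (0.118) or 16 (0.0643) library of 0× glucose, nor without any 1 of the 2-DG libraries (0.0583 to 0.122). *Eif4ebp1* was higher by 0.35 ± 0.08 (edgeR, adjusted p = 0.0166), but not called without the passage 15 library of 0× glucose (0.0563) or the passage 13 library of 2-DG (0.0653).

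Levels were also compared between ES cell passages. With group as a term, 22 of the 38 members (57.9%) were called between passages, near the 46.2% of all genes tested. In 17 of the 38 (44.7%) the call was lower in both passages 15 and 16 than in passage 13, compared with 21.2% of all genes, and in 2 it was higher in both, compared with 21.7%. *Stc2* was lower by 1.12 in passage 15 and by 1.44 in passage 16 on the log2 scale (edgeR, adjusted p = 2.11e-05). *Pycr1* was lower by 0.77 and 0.78 (edgeR, adjusted p = 3.26e-05), and *Slc7a3* by 0.85 and 0.77 (edgeR, adjusted p = 0.000105). *Chac1* was lower by 0.64 and 1.80 (edgeR, adjusted p = 0.0117). *Slc38a2* was higher by 0.35 and 0.23 (edgeR, adjusted p = 2.10e-05), as the 1× glucose libraries at 297, 367 and 352 CPM show.

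Within each passage, all 23 members called higher in 2-DG lay above their 1× glucose library. They were called from these same libraries and their groups did not overlap, so this direction follows from their selection. The median difference was 0.83 in passage 13, 0.90 in passage 15 and 0.46 in passage 16 on the log2 scale. Passage 16 gave the smallest difference for 21 of the 23, *Chac1* and *Trib3* being smallest in passage 13. How often it did so among all genes called higher was not counted, so this order is not shown to be particular to the members. With 1 library per group in each passage, these differences have no replicate check and were not tested. The primitive streak marker *T/Bra* was at 322, 167 and 187 CPM in 1× glucose and at 64.6, 67.1 and 96.1 CPM in 2-DG in passages 13, 15 and 16, so that its levels in both groups also differed by passage. Whether the passage or the library gave the smaller differences cannot be told apart.

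**Figure D5:**
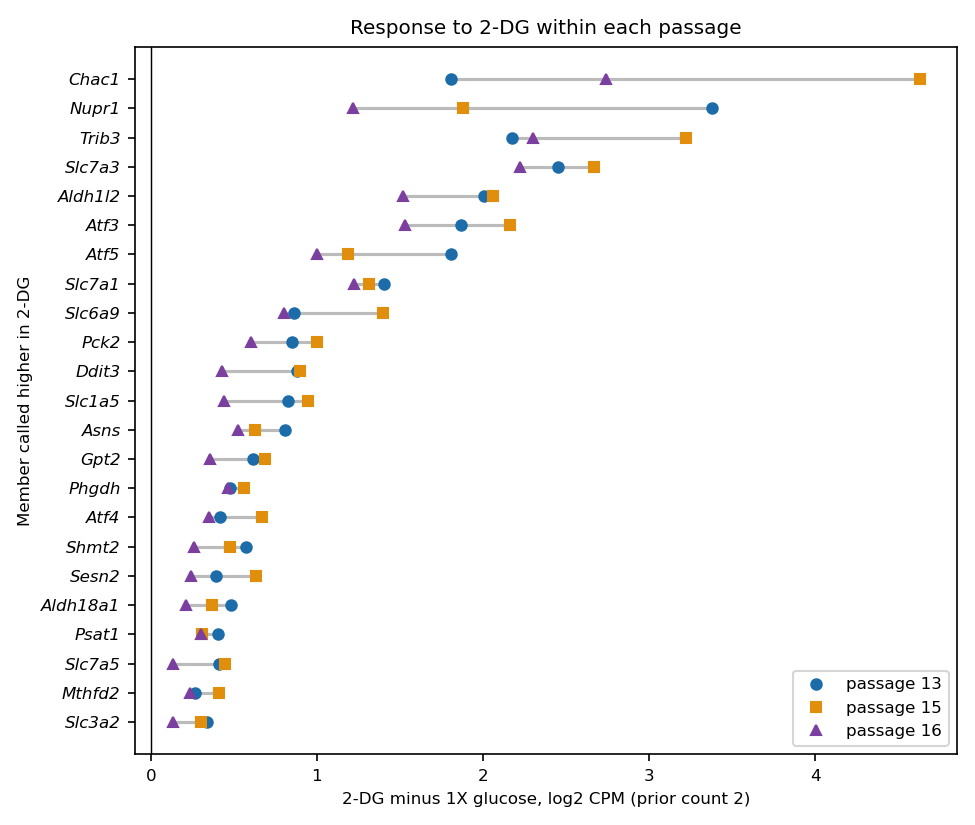
Difference between the 2-DG and 1× glucose library of the same ES cell passage in log2 CPM (horizontal axis) for the 23 members called higher in 2-DG. Symbols give the passage, and grey lines join the lowest to the highest. All points are above 0, which follows from the selection of genes called higher in these libraries. Passage 16 is the lowest for 21 of the 23 genes.

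Genes beside the module in the same pathways were read from 5 lists, chosen by name with earlier results of these data known. Their counts of calls are thus descriptions and no independent result. Of all genes, 17.6% were called in 2-DG, 9.12% higher and 8.51% lower. The eIF2 kinases and eIF2 subunits and regulators had 1 of 17 called higher and 3 lower in 2-DG, near the share of all genes, with a median log2 fold change of −0.05. *Eif2ak3*, which encodes the ER stress kinase PERK, was at 22.1, 23.8 and 26.9 CPM in 1× glucose and at 32.8, 39.1 and 36.1 CPM in 2-DG, a log2 fold change of 0.57 ± 0.11 (edgeR, adjusted p = 0.00750). The lower genes were *Eif2b3*, *Eif2ak1* and *Eif2b2*, at −0.20, −0.19 and −0.18. Of 12 ER stress genes known as targets of the parallel ATF6 and XBP1 arms, all 12 were called higher, with a median of 1.21. *Sdf2l1* differed by 2.01 ± 0.15, *Herpud1* by 1.76 ± 0.13 and *Creld2* by 1.65 ± 0.12 (edgeR, adjusted p = 5.46e-05, 5.12e-05 and 5.12e-05). In 0× and 3× glucose none of these 12 was called.

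Metabolic neighbours were called in both directions. Of 11 other folate and glycine enzymes, 3 were called, with a median of −0.10 over the 11. *Gcsh* and *Amt*, of the glycine cleavage system, were lower at −0.25 and −0.17. Among 19 other amino acid enzymes 4 were higher and 3 lower, with a median of 0.03. *Ass1*, argininosuccinate synthase, differed by 1.1 ± 0.28 (edgeR, adjusted p = 0.0217), *Odc1* by 0.34 and *Bcat1* by 0.31. *Pycr3*, a proline synthesis enzyme listed as *Pycrl*, was lower at −0.35, and *Ahcy* at −0.16. Of 17 other amino acid transporters tested, 5 were called higher and 1 lower, with a median of 0.24. *Slc7a8*, *Slc36a1* and *Slc38a7* had log2 fold changes of 0.93, 0.56 and 0.53, and *Slc7a7* of −0.73. Across the 5 lists 32 genes were called, but 14 when only the most abundant transcript of each was counted. In 0× and 3× glucose none was called by edgeR or DESeq2.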

How the data were processed

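PolyA RNA of day 4 gastruloids was sequenced in 12 libraries, 3 per group. The authors deposited, for each library, estimated counts of 120312 RefSeq transcripts, all whole numbers, made per the labels and methods with Trim Galore, HISAT2 on mm10, SAMtools, Picard and StringTie. Versions and settings are not given in the sources used here. How StringTie shares reads between transcripts limits values per transcript, so the counts of a gene's transcripts were added up (38911 genes, named by RefSeq on GRCm38.p6). The authors' 3 tables of DESeq2 fold changes and p-values were not used.

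Members and neighbouring lists were chosen by name with earlier results of these data known. Values per library are given for members called in 2-DG by either fit and for members with an unadjusted p under 0.05 in 0× or 3× glucose, and for neighbouring lists the 3 largest called changes each way are named, except 2 genes that are not reported here. All 4 groups were fitted together without a passage term in R 4.3.3 with edgeR 4.0.16 (filterByExpr, TMM, glmQLFTest), p-values were adjusted by Benjamini-Hochberg over 16966 genes with a threshold of 0.05, and standard errors came from the F statistic. Differences between libraries used log2 CPM with a prior count of 2. Alternatives were no filter, the passage as a block, DESeq2 1.42.0, median-of-ratios factors, the most abundant transcript alone, only the groups compared, and leaving out each library. The labels give replicates of all groups the same ES cell passages, which pair the libraries. Deviations from group means correlated at 0.0963 to 0.623 within a passage (18 pairs) and at no more than 0.191 between passages (36 pairs). The edgeR fit without the block was tested on simulated counts for 2-DG against 1× glucose. Those counts held no passage effect, so they cannot check that fit for libraries paired by passage. The p-values measure the spread between these libraries, and count limits cover counting error only.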

Additional observations from a re-analysis of the deposited data

Results flagged for a closer look

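Within passages, 4 members moved in opposite directions with 2-DG, comparing 1 library of each group, so that none of these differences was tested. *Pycr1* was lower in passage 13 by value, at −0.24 on the log2 scale, and higher in passages 15 and 16, at 0.14 and 0.30. *Ddit4* was at 0.0091 in passage 15 and at −0.09 and −0.10 in the other two. *Cebpg* was at 0.0561 in passage 15 and at −0.05 and −0.02 elsewhere. *Ppp1r15a* was at 0.0332 in passage 15 and at −0.09 and −0.17 elsewhere. These are the members for which 1 passage stood against the others, and none of the 4 was called between 2-DG and 1× glucose.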

How the results depend on the processing

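When passage entered the fit as a replicate block, 30 members were called in 2-DG against 1× glucose (24 without it), 31 against 0× glucose (24), and 0 in each of the comparisons among 0×, 1× and 3× glucose, with 47 neighbouring genes called in place of 32. No member's call was lost under the block. Using the most abundant transcript alone gave 13 members and 14 neighbouring genes in 2-DG against 1× glucose, 14 members against 0× glucose and 8 between passages (22), moved the regulators' median to 0.68 in 2-DG against 0× glucose and that of the enzymes to 0.0234 in 0× against 1× glucose. The common dispersion of that fit was 0.289, compared with 0.0317. DESeq2 called 1 member, *Cth*, in 0× against 1× glucose, and its share of all genes was not counted.

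Leaving out 1 library, without a passage term, left 18 to 23 members called in 2-DG against 1× glucose and 19 to 24 against 0× glucose. In 2-DG against 1× glucose it left 25 to 29 neighbouring genes. The share of all genes called was not counted in these fits. It was also not counted for the most abundant transcript against 0× glucose or between passages. Fewer members called there may thus mirror fewer genes called in all, which was not tested. Medians of the transporters ranged from 0.37 to 0.72 in 2-DG against 1× glucose, 0.40 to 0.66 against 0× glucose, −0.13 to −0.0331 in 0× against 1× glucose and −0.0202 to 0.14 in 3× against 1× glucose. Those of the regulators ranged from 0.58 to 0.93 in 2-DG against 1× glucose, 0.59 to 1.01 against 0× glucose, −0.0941 to 0.0108 in 0× against 1×, −0.19 to 0.0816 in 3× against 1× and −0.0252 to 0.19 in 3× against 0× glucose. Those of the enzymes ranged from 0.32 to 0.41 in 2-DG against 1× glucose, −0.0543 to 0.0581 in 0× against 1× and −0.0348 to 0.0594 in 3× against 0× glucose. Members that were not called changed sign: without the passage 13 library of 1× glucose, *Ddit4* (0.0833), *Cebpg* (0.02), *Psph* (0.11) and *Slc38a2* (−0.04), without the passage 16 library of 2-DG, *Ddit4* (0.03), *Cebpg* (0.0322) and *Psph* (0.06), and without the passage 15 library of 2-DG, *Psph* (0.02) and *Slc38a2* (−0.0451). *Pycr1* changed sign without the passage 15 (−0.12) or 16 (−0.16) library of 1× glucose, without the passage 13 library of 2-DG (−0.15) and with no filter on low counts (−0.0048). Across these fits the log2 fold change of *Psph* ranged from −0.18 to 0.11, of *Pycr1* from −0.16 to 0.38 and of *Slc38a2* from −0.0451 to 0.13. Counts of *Nupr1* and *Gdf15* were at most 33 and 7 per library, and for *Fgf21*, at 0 throughout, no expression and expression below the depth cannot be told apart.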
